A study of Drosophila melanogaster with 2 samples.

Results

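The mitochondrial ribosomal protein genes of Drosophila melanogaster were taken as every protein-coding gene of the BDGP6 annotation whose symbol starts with mRpL (large subunit) or mRpS (small subunit). The rule found 73 genes, 47 of the large and 26 of the small subunit, among 13945 protein-coding genes on the chromosome arms. It used the symbol alone, and no measured value. These nuclear genes encode the proteins that, with RNAs of the mitochondrial genome, build the ribosome inside the mitochondrion. That ribosome translates the few respiratory chain subunits that the mitochondrial genome still encodes, so its proteins are made in the cytoplasm, imported, and needed in nearly every respiring cell. Many of them carry the names of bacterial ribosomal proteins they descend from, and others joined the ribosome during mitochondrial evolution.

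Ftz-F1 is an orphan nuclear receptor, known as the partner of the segmentation protein Fushi tarazu in the early embryo and later as a protein that readies tissues to respond to the steroid ecdysone. Its binding was measured by chromatin immunoprecipitation and sequencing with an antibody against GFP, in whole embryos of mixed sex aged 0 to 24 hours from flies carrying a transgene for Ftz-F1 with GFP at its C-terminus. There was 1 group, with 2 libraries labelled replicates 1 and 4, and no second condition. They have separate biosample entries, but whether these stand for separate embryo collections is not stated, so part of the spread between them may be technical. The transgene's driving sequences, the endogenous gene's state and the control library's identity are not stated in the sources used here, and a peak from whole embryos cannot be assigned to a cell type or hour. For each replicate and for both pooled, the authors deposited a list of 30000 peaks and background regions, in which a summit marks the point of highest signal. Their thresholded list, the product of an irreproducible discovery rate (IDR) step, which sets a cutoff from how well ranks repeat between replicates, holds 3960 peaks. These are the 3960 strongest of the pooled list, and 69.7% of them are among the 3960 strongest of both replicates. The signal values are those the authors assigned to each peak, in units that the files leave unstated. A value ranks peaks within 1 list and says nothing about occupancy.

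Ftz-F1 summits lay at the promoters of a minority of these genes in the thresholded list and of most of them in the pooled list. Of the 73 genes, 19 (26.0%, 95% Wilson interval 17.3 to 37.1) had an IDR summit within 500 bp of one of their transcript starts. The share among all protein-coding genes was 18.4%, which lies inside that interval. A pooled summit lay within 500 bp of a start of 63 of the 73 genes (86.3%, 76.6 to 92.4), against 57.8% of all protein-coding genes. All intervals given for shares are 95% Wilson intervals, the limit beside a count of 0 is 3 counts out of the total, and both cover counting error only.

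The large and small subunit genes had overlapping intervals. An IDR summit was found at 12 of 47 large subunit genes (25.5%, 15.3 to 39.5) and at 7 of 26 small subunit genes (26.9%, 13.7 to 46.1). Pooled summits were found at 41 and 22 of them. Genes that bear a bacterial protein's name, L1 to L36 or S1 to S21, had an IDR summit in 11 of 42 cases (26.2%). Genes with higher numbers, most of which name proteins added in mitochondria, had one in 8 of 31 cases (25.8%).

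Gene architecture mattered to the comparison. The genes are short, with a median length of 909 bp (range 390 to 13391) against 2166 bp for all protein-coding genes, and 67 of the 73 have 1 annotated start. Among other protein-coding genes in the same deciles of gene length, weighted by the number of mitochondrial ribosomal protein genes in each, 9.67% had an IDR summit. The observed 19 genes stand against 7.06 at that rate, a ratio of 2.69. The genes are also crowded: 54 of 73 (74.0%, 62.9 to 82.7) have another protein-coding start within 500 bp, against 30.9% of all genes, 40.2% of 92 cytoplasmic ribosomal protein genes and 46.6% of 88 respiratory chain and ATP synthase genes. When such a neighbour was matched along with length, the rate in other genes was 18.2%, or 13.3 genes, and the ratio was 1.43. That rate lies inside the interval of the observed share. In the pooled list the same double matching gave 59.5%, which lies below the interval of the observed 86.3%.

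The doubly matched rate lay below the interval of the observed share among the very strongest peaks and again once weak peaks were counted, and inside it in between. Counting only the 500 strongest pooled peaks, 7 of the 73 genes had a summit (9.59%, 4.72 to 18.5), against 1.86% of genes matched for length and neighbour. No further gene entered down to the 1000 strongest, where the matched rate was 4.84%. With 2000 peaks there were 11 genes (15.1%, 8.63 to 25.0) against 9.73%. With 8000 there were 33 (45.2%, 34.3 to 56.6) against 34.0%. With 12000 there were 44 (60.3%, 48.8 to 70.7) against 44.0%, and with 20000 there were 56 (76.7%, 65.8 to 84.9) against 53.6%.

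**Figure D1:**
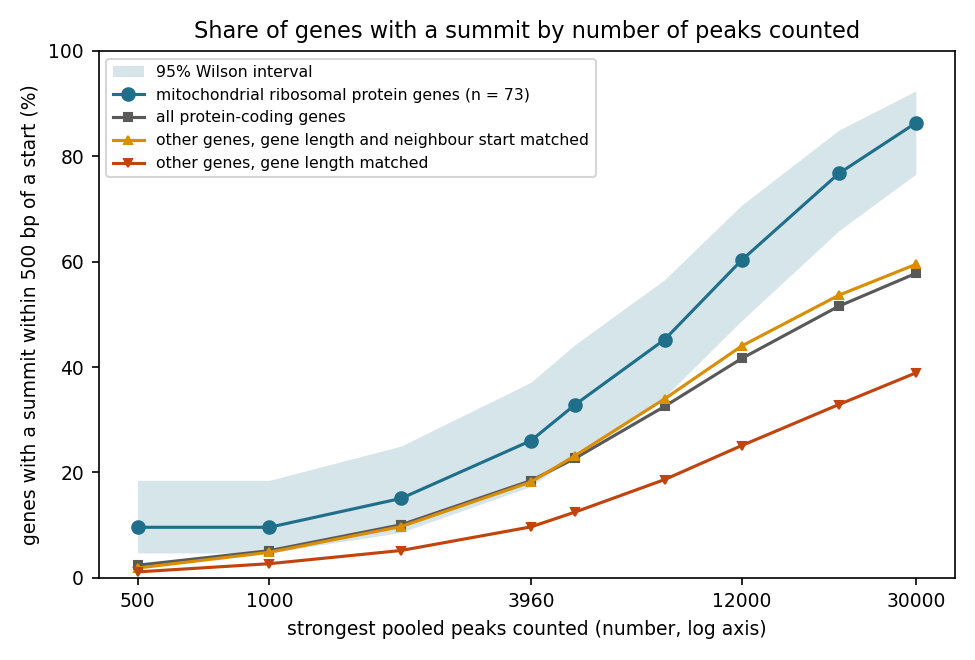
Share of genes with a summit within 500 bp of a transcript start (y axis, percent) against the number of strongest pooled peaks counted (x axis, log scale), for the 73 mitochondrial ribosomal protein genes with their 95% Wilson band, for all protein-coding genes and for other genes matched on length alone or on length and a neighbouring start. At 3960 peaks the doubly matched rate of 18.2% lies inside the band (17.3 to 37.1), and at 30000 peaks its 59.5% lies below the band (76.6 to 92.4).

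Nearly all IDR summits of the set were at genes with a neighbouring start, while the intervals with and without one overlapped. Of the 54 genes with another protein-coding start within 500 bp, 18 (33.3%, 22.2 to 46.6) had an IDR summit, against 30.7% of all genes so placed. Of the 19 genes without one, only mRpL41 did (5.26%, 0.935 to 24.6), against 13% of all genes without a neighbouring start. The first share is near the background of its class, and the interval of the second, from 1 gene, holds its background. The neighbour is divergent in 52 of the 54 cases, with a median of 260.5 bp between nearest starts over the 54, and 16 of these 52 genes (30.8%) had an IDR summit against 31.2% of all genes with a divergent neighbour. The other 2, mRpL53 with CG33155 and mRpL13 with CG10602, have a start at the same position and on the same strand as their neighbour (0 bp apart), and both had an IDR summit. In the pooled list, 51 of the 54 genes with a neighbour (94.4%) had a summit against 81.1% of all such genes. Without a neighbour the count was 12 of 19 (63.2%) against 47.3%.

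The sequences of 6 of the 12 genes of highest signal are shown with those of 2 genes that had no summit in any list. The 6 were chosen because they hold CAGCTG, TATCGATA or GGTCACACT, so they do not show how common these motifs are. Of the 12, mRpS10 and mRpL1 hold none of the motifs capitalised below, in promoter or summit window, and were left out. The genes mRpL18, mRpL53, mRpL41 and mRpS16 were left out for the arm they lie on. The sequences come from the NCBI RefSeq release 6 genome, which has the dm6 coordinates. Each promoter runs 5′ to 3′ in the direction of the gene, from 250 bases before its outermost start to 50 after. The capitals mark CAGCTG (an E-box, the site class of basic helix-loop-helix factors), TATCGATA (bound by the promoter factor DREF), GGTCACACT (bound by the promoter factor M1BP) and CACGTG (another E-box). For mRpL11 the summit base with 100 bases on either side is given, because this stretch holds 3 CAGCTG sites. For mRpS23 and mRpL23 the summit lies outside the printed window. It is 388 bp upstream of the start in mRpS23, and 130 bp inside the gene from the outermost start in mRpL23. Neither of these summit windows holds a capitalised motif.
mRpL23 promoter chr3L:2373655-2373954 minus strand: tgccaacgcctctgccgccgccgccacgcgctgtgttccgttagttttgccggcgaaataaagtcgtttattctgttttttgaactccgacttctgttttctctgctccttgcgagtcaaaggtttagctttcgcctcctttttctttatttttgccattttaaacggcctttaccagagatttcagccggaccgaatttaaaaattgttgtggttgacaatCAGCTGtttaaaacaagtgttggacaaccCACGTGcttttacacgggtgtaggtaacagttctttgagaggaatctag
mRpS23 promoter chr2L:13835023-13835322 minus strand: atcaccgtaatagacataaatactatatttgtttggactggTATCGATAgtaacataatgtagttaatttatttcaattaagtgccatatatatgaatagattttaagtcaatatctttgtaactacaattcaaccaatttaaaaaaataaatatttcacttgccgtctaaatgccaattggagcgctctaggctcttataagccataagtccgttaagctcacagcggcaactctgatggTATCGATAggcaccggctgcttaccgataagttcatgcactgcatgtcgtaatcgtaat
mRpL11 summit window chr3R:14511433-14511633 plus strand: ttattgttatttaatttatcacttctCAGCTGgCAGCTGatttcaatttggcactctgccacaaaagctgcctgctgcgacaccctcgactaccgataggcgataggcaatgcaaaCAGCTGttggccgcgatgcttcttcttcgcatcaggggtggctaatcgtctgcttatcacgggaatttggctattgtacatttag
mRpS2 promoter chr2L:4850370-4850669 minus strand: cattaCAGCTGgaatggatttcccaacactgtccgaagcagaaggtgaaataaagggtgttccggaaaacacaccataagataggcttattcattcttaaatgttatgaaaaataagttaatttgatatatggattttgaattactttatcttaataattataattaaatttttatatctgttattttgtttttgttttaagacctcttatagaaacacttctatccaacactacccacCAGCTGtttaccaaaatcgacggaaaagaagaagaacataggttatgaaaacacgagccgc
mRpL55 promoter chr3R:19094856-19095155 minus strand: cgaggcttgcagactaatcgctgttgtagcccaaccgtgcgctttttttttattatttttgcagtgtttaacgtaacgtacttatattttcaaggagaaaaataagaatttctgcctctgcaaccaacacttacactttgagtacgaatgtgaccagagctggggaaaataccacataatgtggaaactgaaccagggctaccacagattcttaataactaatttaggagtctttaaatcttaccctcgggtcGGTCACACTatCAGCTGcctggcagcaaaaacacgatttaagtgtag
mRpL24 promoter chr2L:4945312-4945611 minus strand: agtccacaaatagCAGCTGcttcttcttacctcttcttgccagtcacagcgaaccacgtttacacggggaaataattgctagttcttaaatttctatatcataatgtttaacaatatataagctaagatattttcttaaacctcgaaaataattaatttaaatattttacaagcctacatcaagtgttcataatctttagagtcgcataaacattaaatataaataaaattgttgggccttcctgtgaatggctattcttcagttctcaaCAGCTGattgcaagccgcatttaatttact
mRpL4 promoter chr2L:16329083-16329382 minus strand: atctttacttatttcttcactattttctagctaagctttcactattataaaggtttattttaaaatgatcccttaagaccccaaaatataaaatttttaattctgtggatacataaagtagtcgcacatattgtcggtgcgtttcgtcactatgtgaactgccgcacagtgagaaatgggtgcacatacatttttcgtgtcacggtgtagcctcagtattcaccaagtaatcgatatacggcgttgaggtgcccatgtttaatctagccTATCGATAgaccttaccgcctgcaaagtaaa
mRpL10 promoter chr2L:203529-203828 plus strand: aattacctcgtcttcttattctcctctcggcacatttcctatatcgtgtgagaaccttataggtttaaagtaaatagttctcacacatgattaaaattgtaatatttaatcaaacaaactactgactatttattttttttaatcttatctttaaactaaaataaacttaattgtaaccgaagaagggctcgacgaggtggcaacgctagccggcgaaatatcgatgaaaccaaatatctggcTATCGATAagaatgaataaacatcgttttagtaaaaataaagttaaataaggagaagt

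In these sequences CAGCTG stands at the start of transcription or close to it in mRpL23, mRpS2, mRpL55 and mRpL24, with its first base at −28 in mRpL23, −11 in mRpS2, 14 in mRpL55 and 20 in mRpL24, counting the start base as 0. The mRpS2 and mRpL24 promoters hold a second CAGCTG at the far end, near the neighbour's start. The GGTCACACT of mRpL55 begins 3 bases after the start and lies next to its CAGCTG. The promoters of mRpL4 and mRpL10 hold TATCGATA and no CAGCTG. They were chosen for that motif after their letters were seen: mRpL30 and mRpS5, the other genes without a summit in any list, hold none of the capitalised motifs.

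Of the searched motifs, CAGCTG was the one whose share in the mitochondrial ribosomal protein genes lay farthest above that of other promoters. Among 11 motifs searched on both strands, it was present in 40 of the 73 promoters (54.8%, 43.4 to 65.7), against 17.7% of all protein-coding promoters of the same length and 24.3% of promoters with a neighbouring start. Cytoplasmic ribosomal protein promoters held it in 9.78% of cases, and respiratory chain and ATP synthase promoters in 23.9%. The share was 55.6% in the genes with a neighbouring start and 52.6% in those without. In 35 of the 40 promoters (87.5%) the site nearest the start lay within 50 bases of it, against 53.7% of all promoters with the motif.

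Promoters with CAGCTG had an IDR summit in 13 of 40 cases (32.5%, 20.1 to 48.0), and those without it in 6 of 33 (18.2%, 8.61 to 34.4). These intervals overlap. Over all protein-coding genes the corresponding shares were 25.2% and 17.0%. The windows of 100 bases on either side of the summits of the 19 genes held CAGCTG in 8 cases (42.1%, 23.1 to 63.7), against 17.1% of 2312 windows at all IDR summits near a protein-coding start. Those 8 were mRpL53, mRpL11, mRpS2, mRpL55, mRpL24, mRpL48, mRpL54 and mRpS18C, so of the 7 genes of highest signal only mRpL53 had the motif at its summit. The 17.1% is not matched for the motif's share in promoters, which was 54.8% in this set. The promoters of the same 19 genes, windows of 300 bases, held it in 13 cases (68.4%). No excess particular to the summits is therefore shown.

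TATCGATA was present in 15 of the 73 promoters (20.5%, 12.9 to 31.2), against 9.36% of all. Of the 15 genes 1, mRpS23, had an IDR summit (6.67%, 1.19 to 29.8). That interval holds the 29.0% of all genes with this motif. None of the 19 summit windows held it, which allows a share of up to 15.8%, against 6.36% of all windows. GGTCACACT was present in 8 promoters (11.0%, 5.66 to 20.2), against 6.05% of all. Each time it lay within 50 bases of the start, against 74.1% of all promoters with the motif. All 8 genes have a neighbouring start, against 471 of all 843 genes with the motif. Of these 8 genes, 4 had an IDR summit: mRpS16, mRpL55, mRpL48 and mRpL13. That share of 50% has an interval of 21.5 to 78.5, which holds the 31.7% of all genes with GGTCACACT. TATAAA was present in 34 promoters (46.6%), against 45.8% of all.

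The nuclear receptor half-site AAGGTCA, and the longer forms CAAGGTCA and TCAAGGTCA that contain it and are known as Ftz-F1 binding sites, were in none of the 73 promoters, which allows a share of up to 4.11%. AAGGTCA was present in 2.11% of all promoters, so a rate like that of other genes was not distinguishable from 0 with 73 promoters. None of the 19 summit windows held it either (up to 15.8%), against 4.46% of the 2312 windows. CGCATGCG, the core of the site of the NRF1 family, was in none of the 73 promoters, against 0.624% of all. Of the remaining motifs, CACGTG and GAGAGA were each in 5 promoters (6.85%, 2.96 to 15.1), against 4.20% and 12.3% of all, and TTGACT was in 9 (12.3%, 6.62 to 21.8), against 14.6%. A match is a run of letters and no evidence of a factor. A missing match covers these windows and these exact letters only, and variant forms of a site were not searched.

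The signal values of the 19 genes fell into a high set of 7 and a longer tail. Their strongest IDR summits had a median signal of 147, with quartiles of 123 and 313 and a range of 92.9 to 468. All 2312 IDR summits near a protein-coding start had a median of 131 with quartiles of 108 and 184. Of the 19, 7 exceeded that upper quartile and 1 lay below the lower. The 7 highest ranked between 103 and 346 of the pooled list, and the next gene ranked 1062. Over the pooled list the order was less distinct: the 63 genes with a summit had a median signal of 62.5, and all 8055 genes with one had 65.5.

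**Figure D2:**
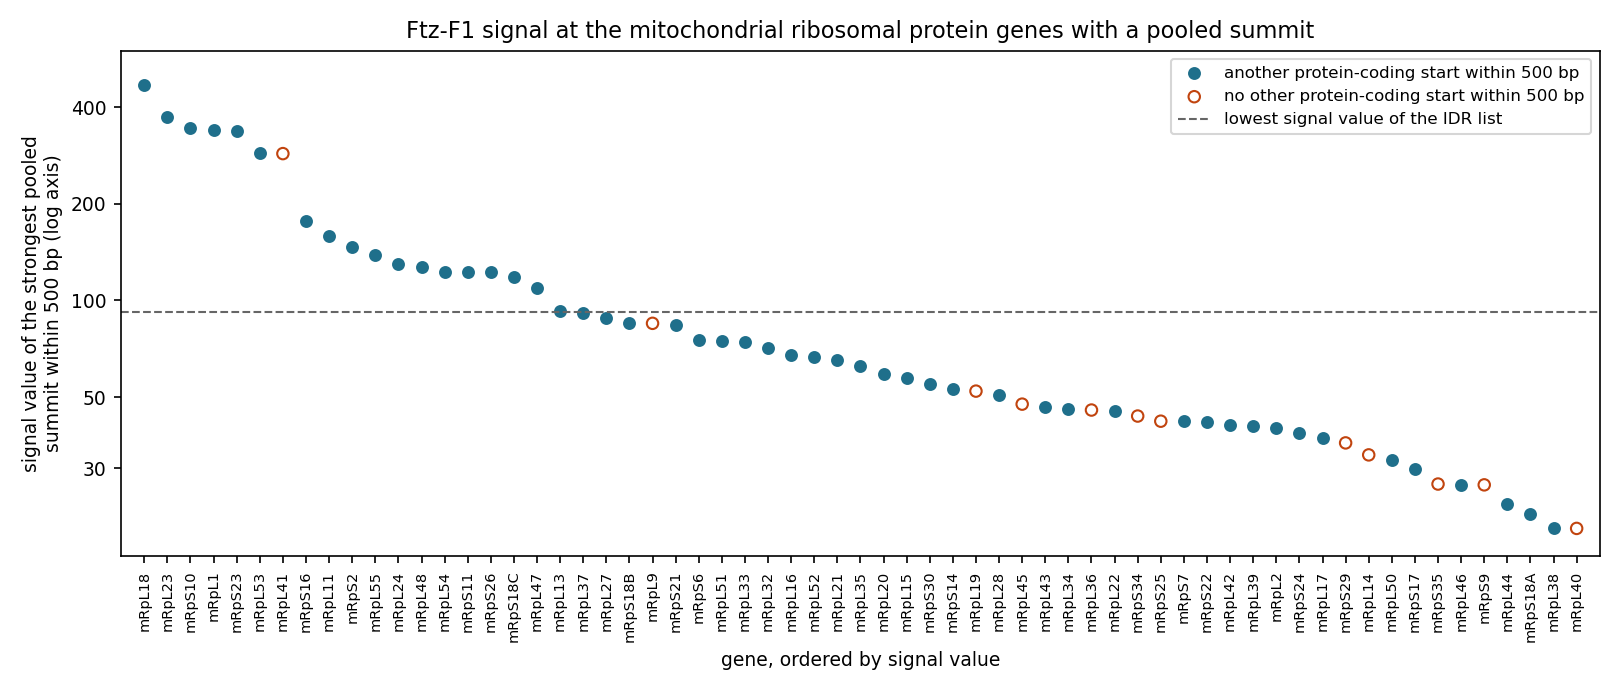
Signal value of the strongest pooled summit within 500 bp of a start (y axis, log scale, the authors' units) for each of the 63 genes that had one (x axis, ordered), with filled points for genes with another protein-coding start within 500 bp and open points for those without. The first 7 genes lie between 287 and 468, the next at 177, and mRpL41 is the only open point above the lowest signal of the IDR list, 91.8.

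The highest signal was at mRpL18 (FBgn0026741), a large subunit protein of the bacterial L18 family, at chr2R:12756434-12757173 on the plus strand. Its summit at 12756262, 172 bp upstream, had a pooled signal of 468 (rank 103), with 187 in replicate 1 (rank 183) and 282 in replicate 4 (rank 80). The divergent neighbour Taz, the cardiolipin-remodelling enzyme tafazzin, starts 20 bp from the start of mRpL18, and the summit lies inside that gene, 152 bp from its start. Next came mRpL23 (FBgn0035335; chr3L:2372844-2373704, minus strand), whose bacterial relative lines the rim of the exit tunnel. Its summit at 2373574 had a signal of 373 (rank 186), with 172 in replicate 1 (rank 235) and 199 in replicate 4 (rank 188). It has 3 annotated starts, and the summit lay 73 bp upstream of the nearest but 130 bp inside the gene from the outermost. The neighbour CG9004 starts 154 bp from the summit.

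The small subunit gene mRpS10 (FBgn0038307; chr3R:15229665-15230516, plus strand) had its summit at 15229517 with a signal of 344 (rank 225). It ranked 213 in replicate 1 (signal 176) and 299 in replicate 4 (167), and the summit lies between its start and that of Art3, an arginine methyltransferase gene, at −148 bp from the one and 109 bp from the other. For mRpL1 (FBgn0037566; chr3R:8301440-8302770, plus strand), whose bacterial relative forms a mobile stalk of the large subunit, the summit at 8301424 was 16 bp upstream of its own start and 446 bp from that of CG9626. It had a pooled signal of 340 (rank 233), with ranks of 252 (signal 164) and 244 (178) in replicates 1 and 4. The reverse held at mRpS23 (FBgn0260407; chr2L:13834250-13835072, minus strand), a small subunit gene. Its summit at 13835460 lay 388 bp upstream and 104 bp from the start of CenG1A, an Arf GTPase activator gene, with a pooled signal of 337 (rank 236), 152 in replicate 1 (rank 313) and 180 in replicate 4 (rank 237).

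At mRpL53 (FBgn0050481; chr2R:13954195-13955664, plus strand) the summit at 13954147, 48 bp upstream, had a signal of 288 (rank 343), with 130 in replicate 1 (rank 444) and 161 in replicate 4 (rank 326). Its start is shared with CG33155, and AGO1, the Argonaute protein of the microRNA pathway, starts 122 bp from the same summit. The gene mRpL41 (FBgn0034001; chr2R:15217024-15217617, minus strand) had its summit at 15217761, at −144 bp, with a signal of 287 (rank 346). It ranked 392 in replicate 1 (signal 137) and 388 in replicate 4 (149). It is the only one of the 19 with no other protein-coding start within 500 bp of the summit. All 7 genes described so far ranked within the first 444 of both replicate lists.

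The next genes had lower and less even signals. At mRpS16 (FBgn0033907; chr2R:14172986-14173596, minus strand) the summit at 14173649, 53 bp upstream and 44 bp from the start of the zinc finger gene cg, had a signal of 177 (rank 1062), with ranks of 1354 and 932 in replicates 1 and 4. It alone of the 19 had a second IDR summit, at 14173848 with a signal of 92.8 (rank 3887). At mRpL11 (FBgn0038234; chr3R:14511838-14512691, plus strand), whose bacterial relative sits at the landing site of translation GTPases, the summit at 14511533 had a signal of 159 (rank 1322; 1398 in replicate 1 and 1305 in replicate 4). It lay at −305 bp and 73 bp from a start of HtrA2, a mitochondrial serine protease gene.

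Small subunit gene mRpS2 (FBgn0031639; chr2L:4849439-4850419, minus strand) had its summit at 4850629, at −210 bp and 12 bp from the start of the endosomal trafficking gene Mon1. The signal was 147 (rank 1573), with ranks of 1611 and 2137 in replicates 1 and 4. At mRpL55 (FBgn0038678; chr3R:19094394-19094905, minus strand), a protein without a bacterial name, the summit at 19094954 lay 49 bp upstream and 46 bp from the start of ATPsynD, which encodes a subunit of the mitochondrial ATP synthase. The signal was 138 (rank 1773), with ranks of 1377 and 2095. The last of the 12 highest, mRpL24 (FBgn0031651; chr2L:4944256-4945361, minus strand), had its summit at 4945533, 172 bp upstream and 46 bp from betaggt-I, the beta subunit gene of a prenyltransferase. Its signal was 130 (rank 2021), with a rank of 1237 in replicate 1 and 3304 in replicate 4.

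The remaining 7 genes had signals from 92.9 to 127. In order these were mRpL48 (127), mRpL54 (123), mRpS11 (122.4), mRpS26 (122.3), mRpS18C (118), mRpL47 (109) and mRpL13 (92.9), with pooled ranks of 2116, 2286, 2303, 2310, 2481, 2895 and 3884. The bacterial relative of mRpS11 lies on the platform of the small subunit, and that of mRpL13 joins the large subunit early in assembly. Within the 19, the replicates differed by the most ranks here. The summit of mRpS18C ranked 1127 in replicate 1 and 8321 in replicate 4, that of mRpL54 ranked 1296 and 5499, that of mRpL13 ranked 2419 and 9375, and that of mRpS11 ranked 5285 and 1506.

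Across the 19 genes, 15 peaks (78.9%) were among the 3960 strongest of both replicates, against 69.7% of all 2312 IDR summits near a protein-coding start, and the other 4 were among them in exactly 1 replicate. The rank was higher, that is nearer the top, in replicate 1 for 8 of the 19 genes, with median ranks of 1296 in replicate 1 and 1506 in replicate 4. Taking the 3960 strongest peaks of each replicate alone, replicate 1 placed a summit at 24 of the 73 genes (32.9%, against 19.0% of all genes) and replicate 4 at 17 (23.3%, against 17.7%). The rates in genes matched for length and neighbour were 20.0% and 16.2%. In replicate 1 the matched rate and that of all genes lay below the interval of 23.2 to 44.3, and in replicate 4 both lay inside the interval of 15.1 to 34.2. The 15 genes common to both replicates all had an IDR summit, and 7 genes in 1 of them had none. The IDR list is the top of the pooled list, which joins both replicates, so the first count is no separate measure of agreement.

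**Figure D3:**
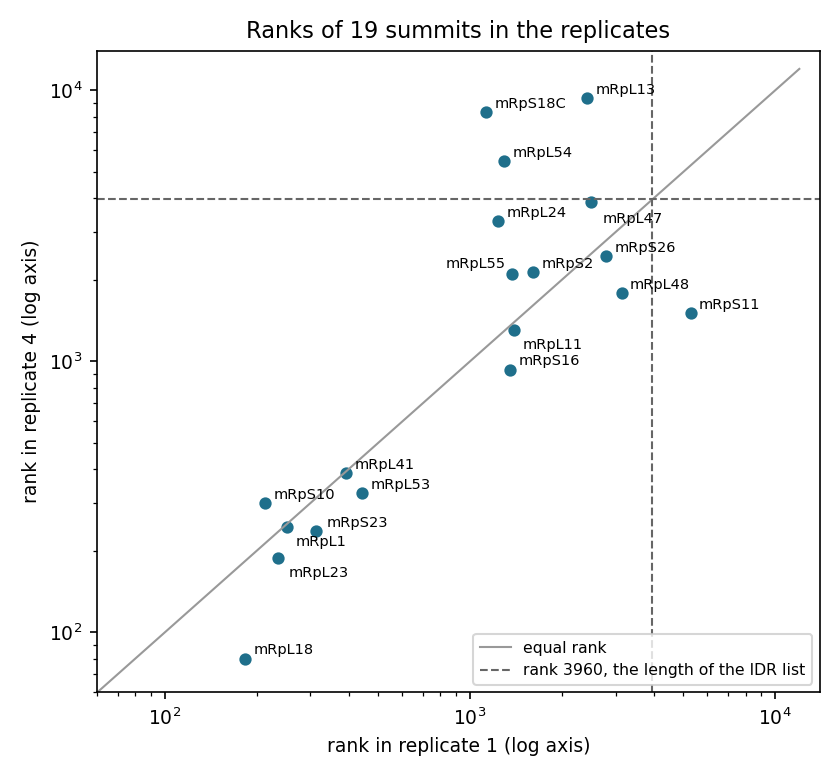
Rank of the summit in replicate 1 (x axis, log scale) and replicate 4 (y axis, log scale) for the 19 genes with an IDR summit, where a low rank is a strong peak, dashed lines mark rank 3960 and the grey line marks equal rank. The 7 genes of highest signal lie at ranks of 444 or less on both axes, and mRpS18C, mRpL54, mRpL13 and mRpS11 lie outside the dashed box.

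The summits lay mostly upstream of the mitochondrial ribosomal protein gene and closer to the start of its neighbour. Of the 19, 18 were upstream of the gene's nearest start (94.7%, against 69.5% of all 2572 genes with an IDR summit), at a median of −99 bp and a range of −450 to 2 bp, against a median of −51 bp over all. The exception was mRpS11, at 2 bp inside the gene. A summit near a second gene was the rule: 18 of 19 also lay within 500 bp of another protein-coding start (94.7%), against 1163 of 2572 genes (45.2%). The 69.5% and 45.2% are not matched for crowding: 74.0% of the mitochondrial ribosomal protein genes have a neighbouring start, against 30.9% of all genes. In 13 cases the summit was closer to the neighbour's start, in 3 to that of the mitochondrial ribosomal protein gene (mRpL23, mRpL1 and mRpS11), and in 2, mRpL53 and mRpL13, the starts coincide. In 12 cases it lay between both starts, taking for each gene the start nearest the summit. At mRpL23 and mRpL11 this does not hold for the closest pair of starts, which are 24 and 126 bp apart. Summits closer to a neighbour or between starts were not counted over all genes, so neither is shown to be particular to this set. The 19 genes had 19 different peaks.

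**Figure D4:**
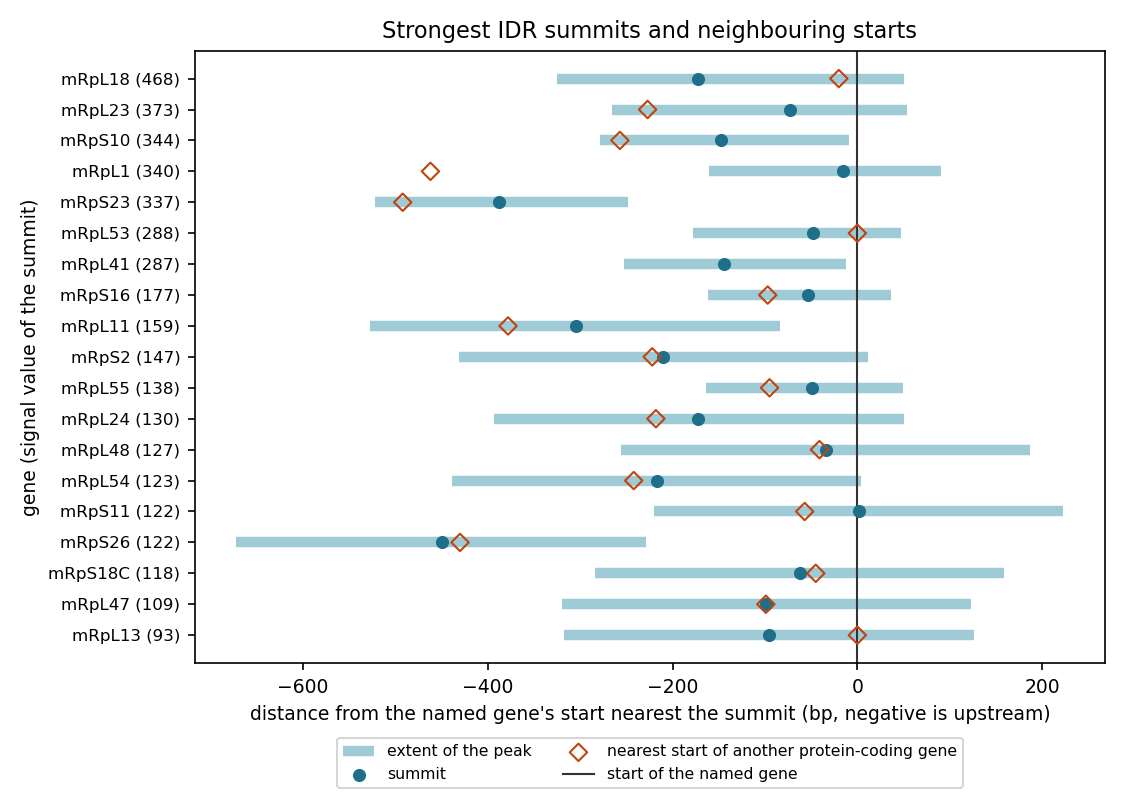
Position of the strongest IDR summit (point), its peak (bar) and the nearest other protein-coding start (diamond) relative to the start of each of the 19 genes (x axis, bp, negative upstream), ordered by signal value, which is given in brackets. The 18 summits left of 0 lie at −16 to −450 bp, and 13 lie nearer to a diamond than to 0.

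At several of these promoters the neighbour's start was almost under the summit. It was 0 bp away at mRpL47 (the starts of CG8176 and of Kdm3, a histone demethylase gene), 7 bp at mRpL48 (CG17660), 12 bp at mRpS2 (Mon1) and 17 bp at mRpS18C (CG15535). At mRpS26 and mRpL54 it was 20 bp (CG13698) and 25 bp (CG15653) away. At mRpS11, Ns1, a nucleolar GTPase gene, starts 59 bp from the summit. Of the 19 peaks, 10 are 444 bp wide, which is the median width over the IDR list. Which of the genes a summit bears on cannot be told apart from these lists.

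The counts by chromosome arm were small and their intervals overlapped. An IDR summit was found at 5 of 12 genes on 2L and 5 of 12 on 2R (41.7%, 19.3 to 68.0 in each), against 17.7% and 19.3% of all genes there. On 3L it was found at 2 of 17 genes (11.8%, 3.29 to 34.3) against 19.0%, and on 3R at 7 of 21 (33.3%, 17.2 to 54.6) against 20.6%. No gene of the set lies on the fourth chromosome. None of the 11 on the X had one, which allows a share of up to 27.3%, and 14.7% of all genes on the X did. Away from the X the share was 19 of 62 (30.6%, 20.6 to 43.0) against 19.1% of all genes. In the pooled list 8 of the 11 genes on the X had a summit (72.7%, 43.4 to 90.3), led by mRpL33 at rank 5639. The share of all genes on the X was 61.2%, which lies inside that interval.

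The genes just below the threshold, where the lowest IDR signal is 91.8, continued the order without a gap. The 8 highest were mRpL37 (pooled signal 91.3, rank 4004), mRpL27 (88.1, rank 4238), mRpS18B (85.1, rank 4501), mRpL9 (84.9, rank 4527), mRpS21 (83.9, rank 4614), mRpS6 (75.4, rank 5521), mRpL51 (74.7, rank 5600) and mRpL33 (74.4, rank 5639). Of these, mRpL9 alone has no neighbouring start. Their replicates differed as well: mRpL37 ranked 2661 in replicate 1 and 6515 in replicate 4, and mRpS18B ranked 10117 and 3052. The 44 genes with a pooled but no IDR summit had a median signal of 45.7, against 49.0 for all 5483 such genes, and 26 of the 44 summits (59.1%) lay upstream of the start against 60.9%.

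No pooled summit lay within 500 bp of a start of 10 genes: mRpL3, mRpL4, mRpL10, mRpL12, mRpL30, mRpL49, mRpS5, mRpS28, mRpS31 and mRpS33. They include relatives of the bacterial proteins that shape the catalytic core and exit tunnel (mRpL3 and mRpL4) and the stalk that recruits elongation factors (mRpL10 and mRpL12). Of the 10, 3 have a neighbouring start. In the replicates' own lists 3 had a summit in replicate 1 and 4 in replicate 4, among which the highest was mRpL12 in replicate 4 (signal 26.8, rank 9969). In mRpL4, mRpL10, mRpL30 and mRpS5 neither replicate had one. A list of fixed length has a lowest signal of its own (18.2 in the pooled list), so absence from it is no measure of 0 signal.

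Among related nuclear gene sets, cytoplasmic ribosomal protein genes had an IDR summit in 45 of 92 cases (48.9%, 38.9 to 59.0), and respiratory chain and ATP synthase genes in 20 of 88 (22.7%, 15.2 to 32.5). The interval of the former lies above that of the mitochondrial ribosomal protein genes (17.3 to 37.1), and that of the latter overlaps it. The sets were not matched for the number of starts, and a summit near any start counts. A single annotated start is held by 67 of the 73 mitochondrial ribosomal protein genes, 47 of the 92 and 53 of the 88. Among genes with a neighbouring start, where 33.3% of the mitochondrial ribosomal protein genes had an IDR summit, the shares were 21 of 37 (56.8%, 40.9 to 71.3) and 15 of 41 (36.6%, 23.6 to 51.9). Pooled summits were found at 90.2% of the cytoplasmic ribosomal protein genes and 69.3% of the respiratory genes, against 86.3%.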

How the data were processed

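Chromatin immunoprecipitation of Ftz-F1 tagged with GFP was measured in 2 embryo libraries of 1 group. The deposited dm6 lists were used, and the dm3 lists were not analysed here. The signal value of each peak and its −log10 q-value are the authors' own. Per the listing deposited beside the sample files, lists of peaks and background regions were called on each replicate and on the pooled replicates, with a control, as input to IDR. Aligner and caller, like the IDR cutoff, were not given in the sources used here. Read depth is unknown, so intervals cover the counting of genes only. Since the −log10 q-value deposited by the authors reached at most 4.18 and was shared by many peaks, signal values ranked them.

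A summit was the peak's start plus the summit offset, in 1-based coordinates. Starts of all transcripts came from Ensembl release 115 (BDGP6.54), sequences from the RefSeq release 6 genome, on 2L, 2R, 3L, 3R, 4 and X. A gene was counted with a summit within 500 bp. Matched rates were the share of all other genes in each of 10 classes of gene length, weighted by the members' numbers, alone or crossed with a neighbouring start. Python 3.11.15, numpy 2.4.6, scipy 1.17.1 and matplotlib 3.10.9 were used, and the counting was tested on simulated data.

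The members, comparison sets, motifs and naming rule were chosen with earlier results of these data known, so no set is tested and no p-value is given. Every gene with an IDR summit was named, the 12 highest by signal in full, with the 8 next by pooled signal and all without a pooled summit; of the other genes of mitochondrial gene expression, the 6 highest. Sequences shown are those of the 12 highest with CAGCTG, TATCGATA or GGTCACACT on the arms printed, and 2 without any summit. Alternatives were other windows, starts, list cuts, single replicates, merged peaks and matchings.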

Additional observations from a re-analysis of the deposited data

How the results depend on the processing

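No paired analysis was possible because there was 1 group and no comparison between conditions. With a window of 250 bp the share of genes with an IDR summit was 21.9%. That of all genes was 15.9%, and that of genes matched for length and neighbouring start 14.9%. With 1000 bp the share was again 26.0%, while both other rates were higher than at 500 bp, at 21.5% and 21.1%. The share was also 26.0% with the outermost start only and with overlapping peaks merged. It was 26.7% with tko and bonsai added, and 28.8% over gene bodies with 2000 bp upstream (26.1% of all genes). With either replicate left out, the 3960 strongest peaks of the other stood in for the IDR list. The share was then 23.3% to 32.9%. Without replicate 4 the rate in genes matched for length and neighbouring start, 20.0%, fell below the interval of the share (23.2 to 44.3), in which the result differs from that of the full list. In the stronger 50% of the IDR list the share was 15.1%, against 9.64% of genes matched for length and neighbouring start, and 10 genes had a summit that also lay at another start. That count was 14 at 250 bp, 19 at 1000 bp and 16 to 22 with a replicate left out. The pooled share was 67.1% at 250 bp and 90.4% at 1000 bp, and no share of all genes is given at these windows. In the whole list of a single replicate the share was 86.3% to 89.0%, against 56.9% to 58.4% of all genes. The median signal was 79.4 to 86.3 in single replicates, each on its own scale, and 288 in the stronger 50%. The ratio to matched genes depended on the matching: it was 2.69 for length, 1.41 with no matching, 1.43 for length and neighbouring start, and 1.75 for the number of starts. It was 2.60 to 3.11 with a replicate left out. Read depth is unknown, and 2 replicates give no estimate of spread for a single gene.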

Other observations

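The interval of the share with an IDR summit in other genes of mitochondrial gene expression overlapped that of the ribosomal protein genes. In a list of 23 named genes, 22 were matched, 1 of them by a synonym, and 15 mitochondrial aminoacyl-tRNA synthetase genes were added. Of these 37 genes, 7 had an IDR summit within 500 bp (18.9%, 9.48 to 34.2, against 18.4% of all protein-coding genes) and 31 had a pooled summit (83.8%, against 57.8%). The counts were 3 of 12 for transcription and DNA maintenance, 3 of 15 for synthetases and 1 of 2 for ribosomal proteins under other names. None of 8 translation factors had one, which allows a share of up to 37.5%.

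The 6 highest were TFAM (signal 169, rank 1153), PheRS-m (153, rank 1430), mtSSB (150, rank 1519), PolrMT (121, rank 2354), tko (109, rank 2890) and ArgRS-m (105, rank 3088). TFAM packages mitochondrial DNA, mtSSB is the single-stranded DNA binding protein and PolrMT is the mitochondrial RNA polymerase. PheRS-m and ArgRS-m are synthetases. The gene tko, which encodes the mitochondrial relative of bacterial S12, lies on the X, where none of the 11 mRpL and mRpS genes had an IDR summit. The other ribosomal protein gene of the list, bonsai, had a pooled signal of 87.8 (rank 4264), below the threshold.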
